A study of Mus musculus with 6 samples.

Results

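The lysosomal genes described here are 39 mouse genes chosen by symbol out of the 54532 in the deposited table. They are lysosomal membrane proteins, peptidases, glycosidases, sulfatases, lipid hydrolases and lipid carriers, the growth factor precursor gene Grn, and the transcription factor genes Tfeb and Tfe3. Every symbol matched exactly 1 row. RNA was measured in 6 libraries of haploid embryonic stem cells of strain 129SV, which carry a single chromosome set. The p53-deficient group (3 libraries) has the genotype P53 - haploid, is titled P53ki and is called a p53 knockout in the series design. The wild-type (WT) group (3 libraries) has the genotype wild type haploid and titles with the tag T3-1. No label gives the allele, the number of lines or clones, the passage or whether feeder cells were used, so differences between the lines and effects of p53 deficiency cannot be told apart. The labels also do not say that libraries of a group came from separate cultures. The p-values below therefore reflect only how these libraries vary, which may be technical.

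Lysosomes are acidic organelles in which hydrolases break down proteins, glycans, lipids and nucleic acids delivered by endocytosis and autophagy. TFEB and TFE3 are basic helix-loop-helix factors of the MiT family that bind E-boxes in the promoters of many lysosomal genes, a set known as the CLEAR network. When nutrients are plentiful, the kinase complex mTORC1 phosphorylates them at the lysosome surface and they stay in the cytoplasm. In mouse embryonic stem cells TFE3 is known for holding back exit from the pluripotent state until folliculin keeps it out of the nucleus. RNA levels do not show where either factor is in the cell.

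Rebuilt read totals over all genes ranged from 11536412 to 21218976 in the p53-deficient libraries and from 17065841 to 20331905 in the WT libraries. Trp53, the targeted gene, stood at 9.71, 9.71 and 9.98 FPKM in p53-deficient libraries, against 64.5, 69.8 and 69.6 FPKM in WT libraries. The stem cell markers Pou5f1, Sox2, Nanog, Zfp42, Esrrb, Klf4, Tdgf1 and Dppa5a were each at 54.1 FPKM or more in all 6 libraries. Their levels were not alike in the groups: of the 8, 4 were called lower, 3 higher and 1 did not pass. Of all tested genes 31.3% were called lower and 35.3% higher. The median log2 fold change of the 8 was -0.08, with a range from -0.90 for Dppa5a to 0.88 for Esrrb, and Nanog had -0.57. Markers of fibroblasts, the usual feeder cells, differed strongly between the groups. The 15 listed fibroblast markers summed to 255 to 264 FPKM in p53-deficient libraries and to 969 to 984 FPKM in WT libraries, and all 13 that could be tested were called lower, with a median log2 fold change of -2.24. Of the 13, Pdgfra reached the level needed for testing only through its WT libraries, with means of 0.262 FPKM in p53-deficient and 1.26 FPKM in WT libraries. S100a4, one of the 2 not tested, was listed at 0 in 2 p53-deficient libraries. The Y-linked genes Ddx3y, Eif2s3y, Kdm5d and Uty summed to 0.330 to 0.395 FPKM in p53-deficient libraries and to 3.51 to 3.94 FPKM in WT libraries. Of 12 macrophage markers, Laptm5 stood apart with 52.4 to 53.5 FPKM in p53-deficient libraries and 36.2 to 38.1 FPKM in WT libraries. The other 11 summed to 3.37 to 3.78 FPKM in p53-deficient libraries and to 8.19 to 8.98 FPKM in WT libraries. Only 3 of the 11 could be tested, of which Lyz2 and Cd14 were called lower. Lyz2 had means of 1.68 FPKM in p53-deficient and 4.48 FPKM in WT libraries, and Cd14 of 0.319 and 1.39 FPKM. In 4 of the 11 the groups overlapped, among them Spi1, with means of 0.501 FPKM in p53-deficient and 0.367 FPKM in WT libraries. Ptprc, the gene of the pan-leukocyte antigen CD45, was at 0.0142 to 0.0260 FPKM in p53-deficient libraries and at 0.00831 to 0.0253 FPKM in WT libraries, and Aif1 was listed at 0 in all 3 p53-deficient libraries. In such bulk samples, fewer cells of a type and less RNA per cell cannot be told apart. What part fibroblast RNA has in the results below was not tested.

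Promoter windows were searched for the E-box that TFEB and TFE3 bind. The RefSeq table (build GRCm38.p6) held windows for 35 of the 39 genes, each of 300 bases, 250 before and 50 after an annotated start. The core CACGTG, which reads the same on both strands, was found in windows of 12 of the 35 genes (34.3%), against 12% of 10050 tested genes and 8.09% of all 27025 genes with a window. The longer form TCACGTG, which contains the core and was searched on both strands, was found in 10 of the 35 (28.6%), against 7.18% of tested genes and 4.29% of all genes with a window. These 10 were Lamp1, Mcoln1, Cln3, Ctsa, Ctsd, Gla, Glb1, Gaa, Naglu and Sgsh. The 150 bases that end just before the start are printed, 5′ to 3′ on the gene's strand, for 6 genes with a core in that stretch. They span the changes described below, with 5 genes that fell and Gaa, which rose. Capitals mark the core.

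Lamp1 (chr8:13159011-13159160, plus strand): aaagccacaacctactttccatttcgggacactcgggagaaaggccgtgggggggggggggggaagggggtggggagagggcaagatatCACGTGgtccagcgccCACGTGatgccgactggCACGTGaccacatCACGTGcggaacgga
Mcoln1 (chr8:3500369-3500518, plus strand): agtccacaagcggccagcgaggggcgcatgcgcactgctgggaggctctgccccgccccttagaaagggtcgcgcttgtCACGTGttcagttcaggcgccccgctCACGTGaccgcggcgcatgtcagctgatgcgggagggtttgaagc
Ctsd (chr7:142387828-142387977, minus strand): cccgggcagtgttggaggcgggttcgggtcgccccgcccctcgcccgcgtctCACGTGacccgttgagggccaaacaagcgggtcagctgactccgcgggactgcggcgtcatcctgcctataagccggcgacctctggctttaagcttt
Glb1 (chr9:114400928-114401077, plus strand): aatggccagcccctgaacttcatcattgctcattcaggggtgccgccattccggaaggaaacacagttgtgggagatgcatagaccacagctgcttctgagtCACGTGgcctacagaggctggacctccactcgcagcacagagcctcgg
Naglu (chr11:101069944-101070093, plus strand): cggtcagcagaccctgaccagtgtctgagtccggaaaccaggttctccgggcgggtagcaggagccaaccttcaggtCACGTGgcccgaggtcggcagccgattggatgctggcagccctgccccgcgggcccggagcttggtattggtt
Gaa (chr11:119267813-119267962, plus strand): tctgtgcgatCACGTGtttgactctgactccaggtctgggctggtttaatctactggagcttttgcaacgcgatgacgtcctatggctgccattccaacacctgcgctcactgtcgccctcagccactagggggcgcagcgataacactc

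The Lamp1 stretch held 4 cores, that of Mcoln1 held 2, and the other printed stretches held 1 each. A match is a run of letters and not a shown binding site. A window without a match does not show that the gene lacks a site, since only 300 bases at each annotated start were searched. Cln3 and Ctsa were counted through only 1 of their windows.

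Most lysosomal genes were lower in p53-deficient cells, while the genes of both transcription factors were higher. All 39 passed the filter (mean FPKM at least 0.5). Of these, 32 were called lower, 5 were called higher, and Cln3 and Cd63 did not pass the test (limma on log2(FPKM + 1), adjusted p under 0.05 over 15144 genes). Across all tested genes 66.5% were called, 31.3% lower and 35.3% higher. Set against these shares, lower calls were frequent among the 39 and higher calls were few. Their median log2 fold change was -0.50, against 0.03 over all tested genes, and 33 had all p53-deficient libraries below all WT libraries, while 5 had them all above. Of all tested genes 71.4% had groups that did not overlap, 33.7% on the lower side and 37.7% on the higher side. Lower calls of at least 2-fold on the log2(FPKM + 1) scale numbered 8 (Lamp2, Ctsb, Ctsh, Ctsk, Glb1, Gusb, Naglu and Lipa), where 6.30% of tested genes had one, and 1 gene, Tfeb, was higher by at least that much, where 3.42% did. The FPKM of the 39 genes summed to 959.6, 927 and 941 in p53-deficient libraries, against 1313, 1320.3 and 1313 in WT libraries. Lamp1, Psap and Cd63 alone made up 43.4% to 45.3% of that sum in p53-deficient libraries and 37.6% to 37.9% in WT libraries.

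**Figure D1:**
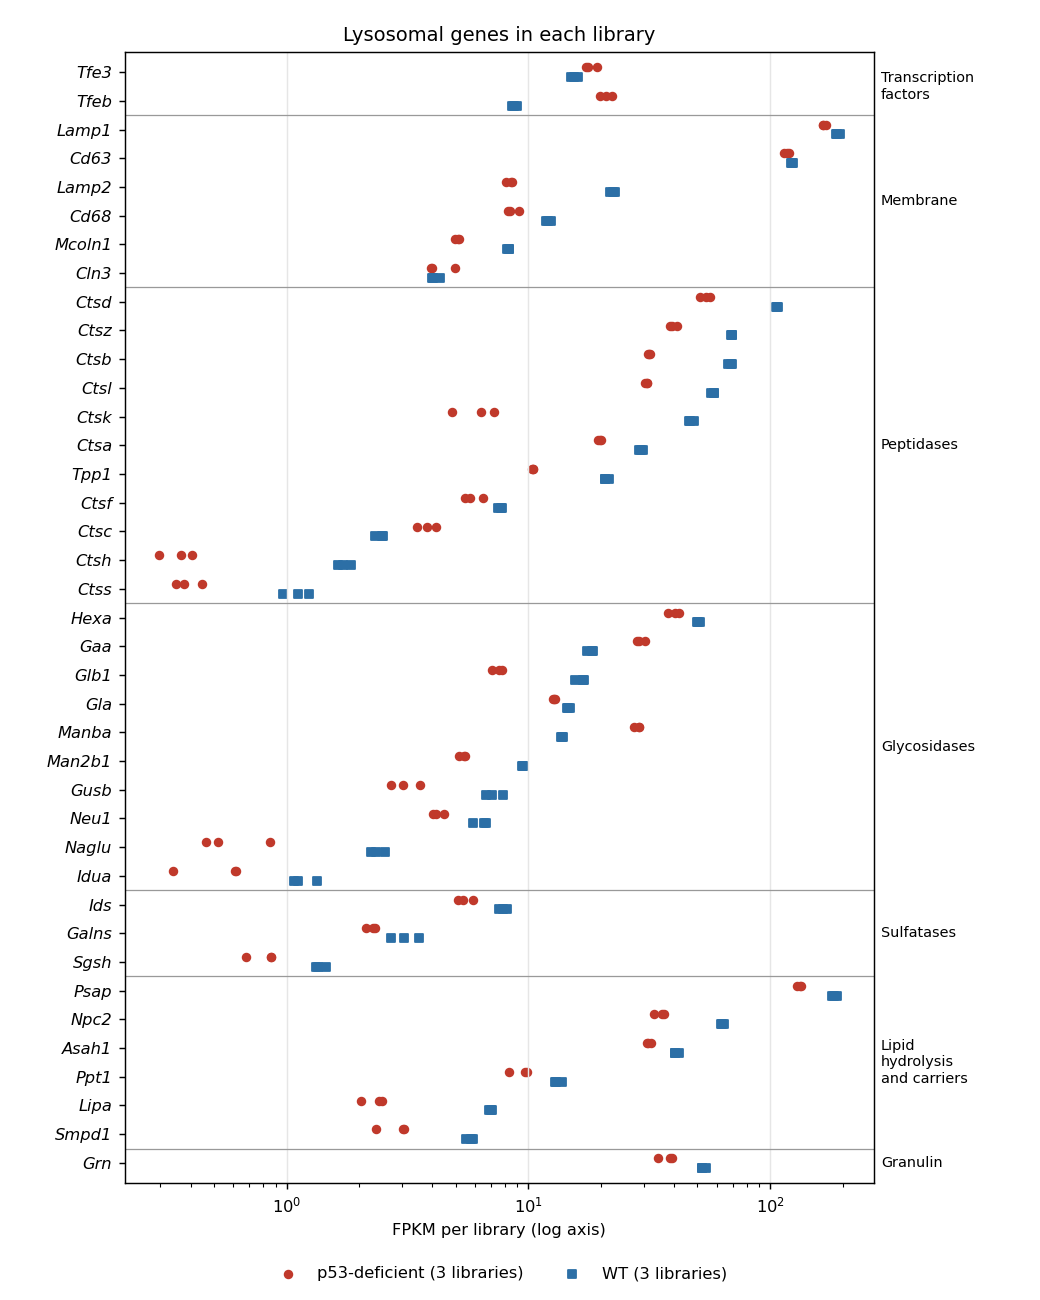
FPKM of each of the 39 lysosomal genes (rows, grouped by role) in the 3 p53-deficient libraries (red circles) and the 3 WT libraries (blue squares), on a log axis. In 33 rows the red circles all lie left of the blue squares, in 5 rows (Tfeb, Tfe3, Ctsc, Gaa and Manba) all lie right of them, and in Cln3 they overlap.

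Tfeb encodes the factor best known for inducing lysosomal genes, and it showed the largest rise among the 39. Tfeb (chromosome 17, 47737030 to 47792419, mm10) stood at 22.1, 19.7 and 20.8 FPKM in p53-deficient libraries, against 8.68, 8.95 and 8.53 FPKM in WT libraries. The groups did not overlap, and the means were 20.9 ± 1.21 and 8.72 ± 0.210 FPKM (SD, n = 3 each). The log2 fold change was 1.17 (SE 0.0458, limma adjusted p = 2.23e-06). Tfe3 (chromosome X, 7762560 to 7775202), its relative, had 19.3, 17.3 and 17.6 FPKM in p53-deficient libraries, against 15.0, 15.5 and 16.1 FPKM in WT libraries. Its log2 fold change of 0.21 (limma adjusted p = 0.00802) was reduced to 0.11 by median-ratio scaling and then missed the threshold (limma adjusted p = 0.0641). The ratio of Tfeb to Tfe3 was accordingly 1.15, 1.14 and 1.18 in p53-deficient libraries and 0.579, 0.579 and 0.531 in WT libraries, so on the FPKM scale Tfeb was the more abundant of the pair in p53-deficient cells and Tfe3 in WT cells. The ratios between genes given here were picked after their values were seen and carry no test.

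Among the 6 membrane proteins, 4 were lower and 2 did not pass. Lamp1 and Lamp2 encode the glycoproteins that line the lysosomal membrane. Lamp1 (chromosome 8, 13159161 to 13175338), the most abundant of the 39, had 165, 171 and 165 FPKM in p53-deficient libraries, against 194, 188 and 189.6 FPKM in WT libraries (log2 fold change -0.19, SE 0.0244, limma adjusted p = 0.00055). Lamp2 (chromosome X, 38401357 to 38456454) had 8.08, 8.53 and 8.45 FPKM in p53-deficient libraries, against 22.3, 21.8 and 22.7 FPKM in WT libraries. Its p53-deficient mean was 37.5% of the WT mean. The log2 fold change was -1.32 (SE 0.0322, limma adjusted p = 3.39e-07). The ratio of Lamp1 to Lamp2 was 20.5, 20.0 and 19.5 in p53-deficient libraries and 8.69, 8.60 and 8.34 in WT libraries. One splice form of Lamp2 is the receptor of chaperone-mediated autophagy, and values per gene do not separate the forms.

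Mcoln1 encodes TRPML1, a channel that releases calcium from lysosomes. It had 5.09, 4.98 and 5.16 FPKM in p53-deficient libraries, against 8.32, 8.32 and 8.19 FPKM in WT libraries, and it fell by 0.61 on the log2 scale (limma adjusted p = 8.53e-06). Cd68, a lysosomal glycoprotein abundant in macrophages, had 8.39, 8.19 and 9.11 FPKM in p53-deficient libraries, against 12.4, 12.1 and 11.9 FPKM in WT libraries (log2 fold change -0.46, limma adjusted p = 0.000128). Cd63, a tetraspanin of late endosomes, had 117, 120.1 and 114 FPKM in p53-deficient libraries, against 123, 124 and 121 FPKM in WT libraries. These groups did not overlap, but the difference missed the threshold (log2 fold change -0.07, 95% interval -0.13 to -0.01, limma adjusted p = 0.0521) and passed it in 6 of the 13 alternatives tried. Cln3, a membrane protein mutated in a juvenile form of neuronal ceroid lipofuscinosis, had 3.98, 3.94 and 4.96 FPKM in p53-deficient libraries and 4.32, 4.03 and 3.98 FPKM in WT libraries. Its groups overlapped, and the 95% interval of the log2 fold change ran from -0.15 to 0.24 (limma adjusted p = 0.647).

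**Figure D2:**
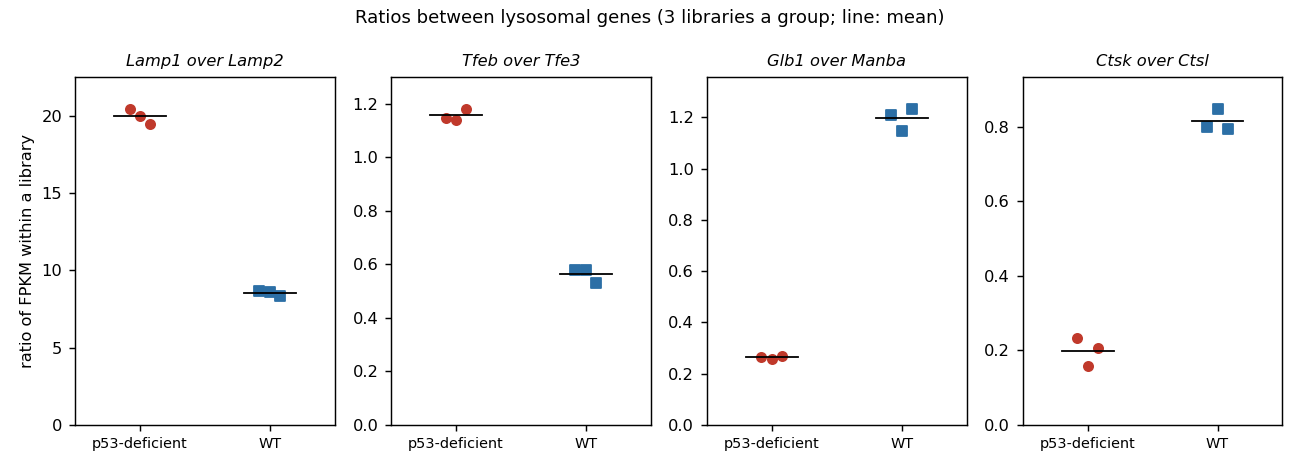
Ratio of FPKM between pairs of lysosomal genes within each library, for 3 p53-deficient libraries (red circles, left) and 3 WT libraries (blue squares, right), with a line at each mean and axes from 0. The ratio of Lamp1 to Lamp2 lies between 19.5 and 20.5 in p53-deficient and between 8.34 and 8.69 in WT libraries, and in no panel do the groups overlap.

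Peptidases had the lowest median of the roles. Of 11, 10 were lower and 1, Ctsc, was higher, with a median log2 fold change of -0.89. Their FPKM summed to 197 to 208 in p53-deficient libraries and to 411 to 413 in WT libraries, and to 192 to 201 against 364 to 366 with Ctsk left out. Ctsk (chromosome 3, 95499256 to 95509362) encodes cathepsin K, a collagen-degrading cysteine protease best known from osteoclasts. It had 7.23, 4.81 and 6.37 FPKM in p53-deficient libraries, against 46.6, 48.2 and 46.3 FPKM in WT libraries, so that the p53-deficient mean was 13.0% of the WT mean. Its log2 fold change of -2.77 (SE 0.120, limma adjusted p = 3.45e-06) was the largest fall of the 39 and, on this scale, the only one below the median of the fibroblast markers (-2.24), which were lower in the same libraries. Ctss, the cysteine protease that trims the invariant chain in antigen presentation, lies 17.4 kb from Ctsk and was low in every library. It had 0.350, 0.446 and 0.376 FPKM in p53-deficient libraries, against 1.11, 1.23 and 0.966 FPKM in WT libraries, from 26 and 86 rebuilt reads in all, and was called lower (log2 fold change -0.59, limma adjusted p = 0.000598).

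The abundant endopeptidases fell by similar amounts. Ctsd, the main aspartyl protease of lysosomes and the most abundant peptidase here, had 56.3, 51.5 and 54.5 FPKM in p53-deficient libraries, against 107, 106 and 106 FPKM in WT libraries (log2 fold change -0.97, SE 0.0347, limma adjusted p = 1.56e-06). Ctsb, a cysteine protease, had 31.7, 31.6 and 31.3 FPKM in p53-deficient libraries, against 66.9, 69.8 and 68.6 FPKM in WT libraries (log2 fold change -1.09, SE 0.0240, limma adjusted p = 2.12e-07). Ctsl, another, had 31.0, 30.3 and 30.9 FPKM in p53-deficient libraries, against 58.4, 56.9 and 58.3 FPKM in WT libraries (log2 fold change -0.89). The p53-deficient means of these genes were 50.8%, 46.1% and 53.2% of the WT means, and no group overlapped. The ratio of Ctsd to Ctsb moved little, at 1.77, 1.63 and 1.74 in p53-deficient libraries and 1.60, 1.51 and 1.55 in WT libraries, whereas that of Ctsk to Ctsl was 0.233, 0.159 and 0.206 in p53-deficient libraries and 0.799, 0.848 and 0.794 in WT libraries. Exons of Ctsb overlap the gene Fdft1 on the other strand over 12.8% of their length, and the kit is not stated to mark the strand. Other members have such overlaps on the other strand too: Ctsa with Pltp (10.5%) and Neurl2 (6.87%), Lamp1 with Grtp1 (9.31%) and Cln3 with Apobr (7.65%). Glb1 overlaps Tmppe on the same strand over 5.5%. Overlaps of Ctsz, Grn, Idua and Ppt1 were 3.51% or less.

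Of the exopeptidases, Ctsz, a carboxypeptidase, had 41.2, 38.4 and 39.3 FPKM in p53-deficient libraries, against 69.5, 69.2 and 68.8 FPKM in WT libraries (log2 fold change -0.79). Tpp1, which removes tripeptides, had 10.5, 10.4 and 10.3 FPKM in p53-deficient libraries, against 20.8, 20.8 and 21.6 FPKM in WT libraries (log2 fold change -0.95). Ctsa, a serine carboxypeptidase that protects β-galactosidase and neuraminidase in a complex, had 19.9, 19.5 and 19.8 FPKM in p53-deficient libraries, against 28.8, 29.3 and 29.7 FPKM in WT libraries (log2 fold change -0.55). All of these were called at a limma adjusted p of 4.01e-06 or less. Ctsh, an aminopeptidase, was scarce, with 0.296, 0.404 and 0.365 FPKM in p53-deficient libraries, against 1.63, 1.84 and 1.72 FPKM in WT libraries. Its p53-deficient mean was 20.5% of the WT mean, a larger change than the log2 fold change of -1.01 conveys, since the added 1 FPKM compresses low values. Ctsf, a cysteine protease, fell by 0.33, the least among the peptidases that fell. Ctsc went the other way: this dipeptidyl peptidase, which activates serine proteases of immune granules, had 4.13, 3.47 and 3.80 FPKM in p53-deficient libraries, against 2.49, 2.31 and 2.47 FPKM in WT libraries (log2 fold change 0.49, SE 0.0633, limma adjusted p = 0.000546).

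Glycosidases moved in both directions, with 8 of 10 lower and 2 higher. Manba (chromosome 3, 135485611 to 135571404), the β-mannosidase of glycoprotein breakdown, had 28.7, 27.4 and 28.7 FPKM in p53-deficient libraries, against 13.9, 13.6 and 13.8 FPKM in WT libraries. The p53-deficient mean was 205% of the WT mean, and the log2 fold change was 0.99 (SE 0.0291, limma adjusted p = 6.99e-07). Gaa, the acid α-glucosidase that degrades glycogen, had 30.3, 28.2 and 28.6 FPKM in p53-deficient libraries, against 18.3, 18.6 and 17.5 FPKM in WT libraries (log2 fold change 0.65, SE 0.0375, limma adjusted p = 1.2e-05). Its promoter stretch is the one printed above with the core near the 5′ end. Man2b1, the α-mannosidase that acts on the same glycans as Manba, was lower, with 5.45, 5.43 and 5.14 FPKM in p53-deficient libraries, against 9.42, 9.51 and 9.48 FPKM in WT libraries (log2 fold change -0.72).

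Glb1 encodes the β-galactosidase whose activity is stained as a marker of senescent cells. It had 7.57, 7.08 and 7.74 FPKM in p53-deficient libraries, against 16.9, 15.6 and 16.97 FPKM in WT libraries (log2 fold change -1.05, SE 0.0470, limma adjusted p = 4.05e-06). Its ratio to Manba was 0.263, 0.258 and 0.270 in p53-deficient libraries and 1.21, 1.15 and 1.23 in WT libraries. Gusb, β-glucuronidase, had 3.56, 2.70 and 3.02 FPKM in p53-deficient libraries, against 7.82, 6.68 and 7.07 FPKM in WT libraries, so that the p53-deficient mean was 43.0% of the WT mean (limma adjusted p = 8.94e-05). In both genes the groups were well apart.

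Naglu and Idua take part in the breakdown of heparan sulfate, and both were low. Naglu had 0.465, 0.521 and 0.853 FPKM in p53-deficient libraries, against 2.55, 2.23 and 2.34 FPKM in WT libraries, from 82 and 362 rebuilt reads (log2 fold change -1.07, limma adjusted p = 0.000127). Idua had 0.611, 0.617 and 0.337 FPKM in p53-deficient libraries, against 1.07, 1.34 and 1.11 FPKM in WT libraries (log2 fold change -0.52, limma adjusted p = 0.00406). Both genes were separated between the groups in every library. Hexa, the α subunit of β-hexosaminidase A and the most abundant glycosidase, changed less. It had 42.0, 37.9 and 40.4 FPKM in p53-deficient libraries, against 49.9, 50.04 and 51.1 FPKM in WT libraries (log2 fold change -0.32, limma adjusted p = 0.000373). Neu1, a sialidase, and Gla, α-galactosidase A, fell by 0.50 and 0.18.

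All 3 sulfatases, which strip sulfate from glycosaminoglycans, were lower. Ids, the most abundant of them, had 5.37, 5.87 and 5.09 FPKM in p53-deficient libraries, against 7.58, 8.13 and 7.87 FPKM in WT libraries (log2 fold change -0.46, limma adjusted p = 0.000328). Galns fell by 0.34. Sgsh, scarcer, fell by 0.40, and its p53-deficient mean was 58.4% of the WT mean.

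**Figure D3:**
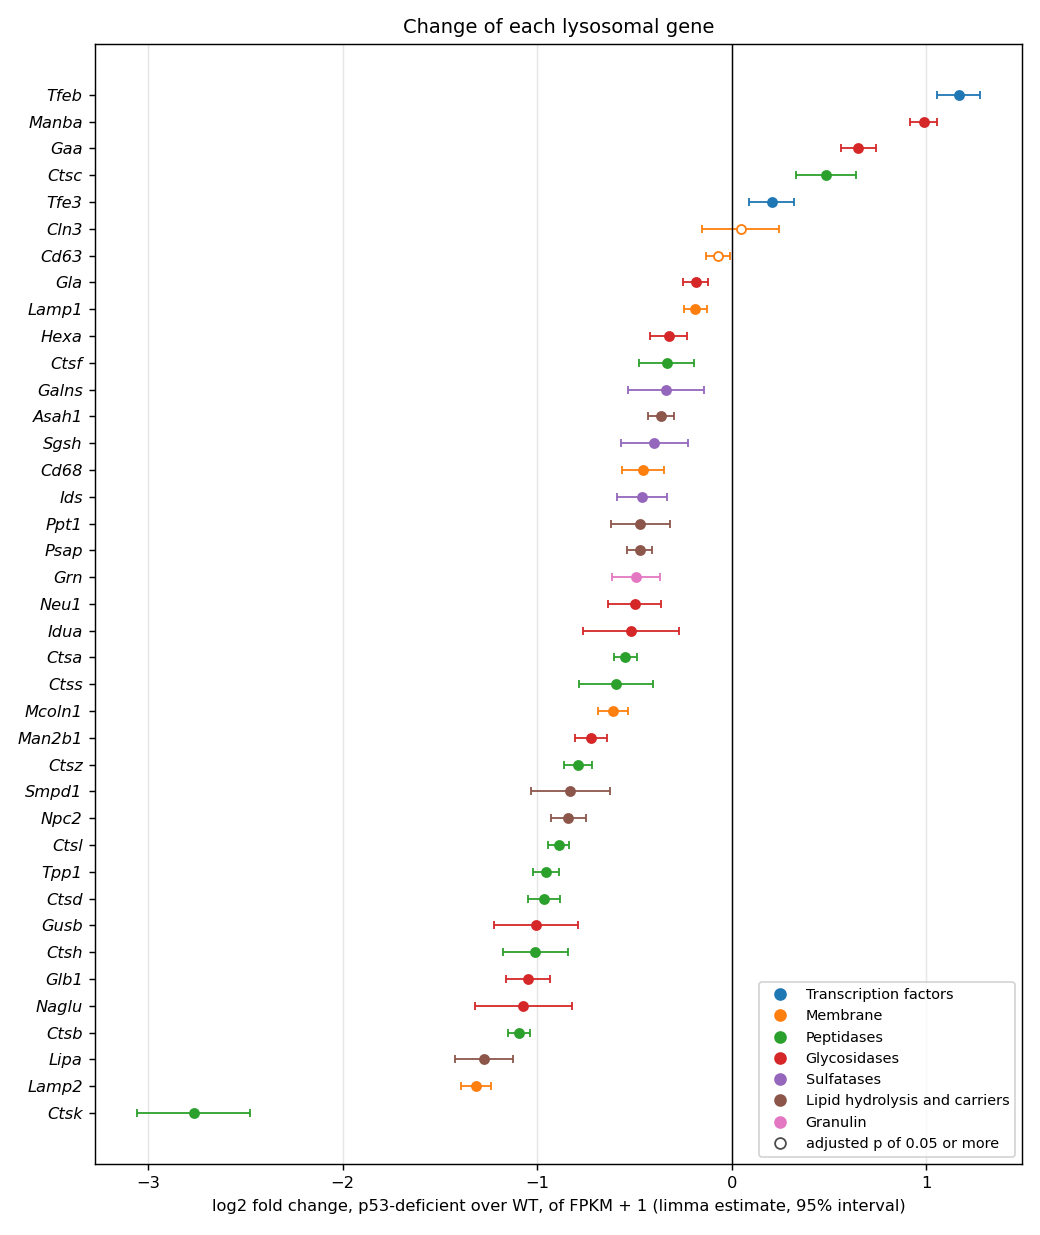
Log2 fold change of FPKM + 1, p53-deficient over WT, for the 39 lysosomal genes, with 95% intervals from the limma fit and colours for role. Open circles mark Cln3 and Cd63, which did not pass. The estimates run from -2.77 for Ctsk to 1.17 for Tfeb.

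All 6 genes of lipid hydrolysis and transport were lower, with a median log2 fold change of -0.65. Lipa, the acid lipase that frees cholesterol from its esters, had 2.42, 2.48 and 2.02 FPKM in p53-deficient libraries, against 7.002, 6.87 and 7.07 FPKM in WT libraries. Its p53-deficient mean was 33.0% of the WT mean (log2 fold change -1.27, SE 0.0622, limma adjusted p = 5.85e-06). Npc2, which hands the freed cholesterol on to the membrane protein NPC1, had 36.4, 33.1 and 35.6 FPKM in p53-deficient libraries, against 63.4, 64.3 and 62.6 FPKM in WT libraries (log2 fold change -0.84, limma adjusted p = 4.23e-06). In neither gene did the groups overlap.

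Sphingolipid genes fell too. Smpd1, acid sphingomyelinase, had 3.05, 2.33 and 3.04 FPKM in p53-deficient libraries, against 5.90, 5.52 and 5.79 FPKM in WT libraries (log2 fold change -0.83, limma adjusted p = 0.00016). Psap, the precursor of the saposins that present sphingolipids to their hydrolases, had 134, 129 and 133 FPKM in p53-deficient libraries, against 179.8, 188 and 183 FPKM in WT libraries (log2 fold change -0.47, SE 0.0270, limma adjusted p = 1.16e-05). Asah1, acid ceramidase, and Ppt1, which removes palmitate from proteins, fell by 0.36 and 0.47. Grn encodes progranulin, a secreted precursor that is cut into granulins in lysosomes. It had 39.2, 34.5 and 38.7 FPKM in p53-deficient libraries, against 52.3, 54.3 and 52.4 FPKM in WT libraries (log2 fold change -0.49, limma adjusted p = 0.000173).

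The changes were also set beside the promoter motif. Among the 10 genes with TCACGTG in a window, 8 fell, 1 rose and 1 did not pass, with a median log2 fold change of -0.47 and a range of -1.07 to 0.65. Among the 25 without it, 20 fell, 4 rose and 1 did not pass, with a median of -0.50 and a range of -2.77 to 1.17. These 25 include Tfeb and Tfe3 themselves, which are both among the 4 that rose. Tfeb gives the upper end of the range. Lamp1, with 4 cores, had a p53-deficient mean of 87.8% of the WT mean, and Naglu, with 1, of 25.8%. Ctsk and Lamp2, with no core in their windows, had 13.0% and 37.5%. No test was made of this difference.

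Other lysosomal genes and genes of related pathways, from 6 lists of 94 genes in all, did not share 1 direction. Of the 91 that passed the filter, 45 fell, 24 rose and 22 did not pass, with a median log2 fold change of -0.14. Background shares over all tested genes, for this count and the next, were 31.3% lower and 35.3% higher. The list of further hydrolases, which also holds some genes of other functions such as Hgsnat, was closest to the 39 described above. Of its 16 tested genes 13 were lower and 1 higher, with a median of -0.49. Of the 13, Galc passed the filter only through its WT libraries, with means of 0.311 FPKM in p53-deficient and 0.836 FPKM in WT libraries. Hgsnat, which acetylates heparan sulfate for its breakdown, had 3.28, 3.56 and 2.78 FPKM in p53-deficient libraries, against 8.95, 10.2 and 10.2 FPKM in WT libraries (log2 fold change -1.36, limma adjusted p = 1.57e-05). Aga, which frees asparagine from glycans, fell by 1.22. Lgmn, the asparaginyl endopeptidase, was the gene called higher, with means of 43.0 ± 1.20 FPKM in p53-deficient and 26.02 ± 0.358 FPKM in WT libraries (SD, n = 3 each), and is named because it was the only one. Pla2g15, a lysosomal phospholipase, stood at 11.1 ± 0.700 FPKM in p53-deficient and 12.1 ± 0.2497 FPKM in WT libraries and did not pass.

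Membrane and acidification genes changed less. Of 14 other membrane proteins 8 were lower and 3 higher, with a median of -0.22, against background shares of 31.3% lower and 35.3% higher. The 3 higher calls became 1 with median-ratio scaling and with quantile normalization. Scarb2, which encodes the membrane protein LIMP-2, fell, at 7.06, 7.85 and 6.80 FPKM in p53-deficient libraries, against 16.8, 17.3 and 16.8 FPKM in WT libraries (log2 fold change -1.13, limma adjusted p = 4.19e-06). Ostm1, the partner of the chloride exchanger ClC-7, and Abca2, a lipid transporter, fell by 0.89 and 0.65, and Cln8 had 0.05 and did not pass. The V-ATPase is the proton pump that acidifies lysosomes. Of its 16 listed genes 9 were lower and 2 higher, against the same background shares, with a median of -0.14 and no change of 2-fold. The 2 higher calls became 1 without p53-deficient replicate 1 or 3, and without WT replicate 1 or 3. Atp6v0a1 and Atp6v1a each fell by 0.57 and Atp6ap1 by 0.47, while Atp6v1f had -0.11 and did not pass.

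The genes that deliver hydrolases to lysosomes were mixed. Of 10 genes of mannose 6-phosphate sorting, 5 were higher and 2 lower, with a median of 0.15, where 35.3% of all tested genes were higher and 31.3% lower. Counts this small do not set the list apart from that background. The receptors themselves parted. Igf2r, the large cation-independent receptor, fell to 11.9, 12.9 and 12.5 FPKM in p53-deficient libraries, against 20.8, 21.3 and 21.4 FPKM in WT libraries (log2 fold change -0.72, limma adjusted p = 5.93e-06). M6pr, the small cation-dependent receptor, had 63.9, 62.9 and 65.8 FPKM in p53-deficient libraries, against 50.03, 49.1 and 49.2 FPKM in WT libraries (log2 fold change 0.37, limma adjusted p = 2.38e-05). Gnptg, a subunit of the enzyme that makes the sorting tag, had -0.43, although 49.5% of its exon length overlaps the gene Unkl on the other strand. Gga1, a sorting adaptor, had 0.06 and did not pass.

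The regulators of TFEB changed in both directions. Of 20 tested MiT factors and genes of mTORC1 control, 10 were higher, 3 lower and 7 did not pass, with a median of 0.08. Background shares were 35.3% higher and 31.3% lower. With median-ratio scaling, 7 of the 20 were higher and 4 lower. Higher calls made up 43.1% of all calls under that scaling, against 53% in the reported fit. Rptor, the mTORC1 subunit that recruits substrates, had 11.4, 11.4 and 11.5 FPKM in p53-deficient libraries, against 5.61, 5.37 and 5.18 FPKM in WT libraries (log2 fold change 0.96, limma adjusted p = 1.82e-06). Rragd, a Rag GTPase that brings TFEB to the lysosome, had 23.8, 24.8 and 24.7 FPKM in p53-deficient libraries, against 14.2, 14.0 and 14.9 FPKM in WT libraries (log2 fold change 0.73, limma adjusted p = 4.87e-06). Mitf, the third measured MiT factor, was scarce and lower, with 1.56, 1.61 and 1.62 FPKM in p53-deficient libraries, against 3.56, 3.37 and 3.25 FPKM in WT libraries (log2 fold change -0.76). Tfec did not reach the filter, at 0.0586 ± 0.0296 FPKM in p53-deficient and 0.392 ± 0.0788 FPKM in WT libraries (SD, n = 3 each). Lamtor2, part of the complex that anchors mTORC1, had 0.07 and did not pass.

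Of 15 autophagy genes 10 were lower and 3 higher, with a median of -0.40, against background shares of 31.3% lower and 35.3% higher. Dram1, a lysosomal membrane protein described as a p53 target in human cells, had 0.859, 1.53 and 1.15 FPKM in p53-deficient libraries, against 3.04, 2.77 and 2.98 FPKM in WT libraries (log2 fold change -0.86, limma adjusted p = 0.000613). Wipi1 and Atg9b, which act in autophagosome formation, fell by 0.84 and 0.69, and Gabarapl1 had -0.01 and did not pass.

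**Figure D4:**
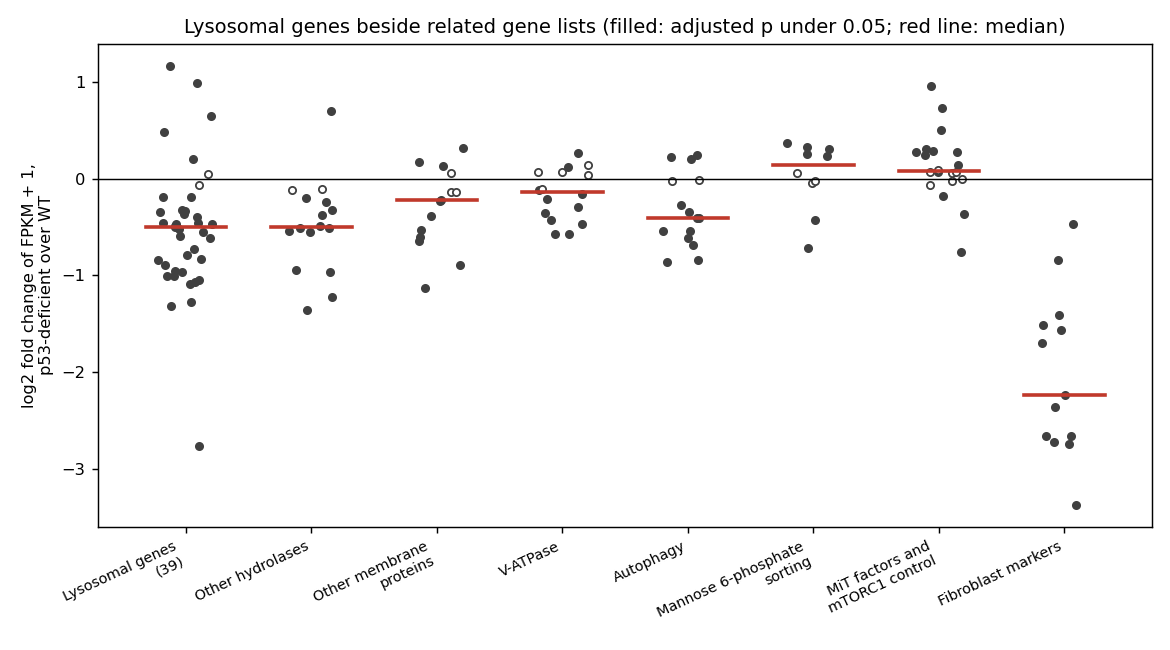
Log2 fold change of FPKM + 1, p53-deficient over WT, of each tested gene in the 39 lysosomal genes, 6 related lists and the fibroblast markers (columns). Filled points passed an adjusted p under 0.05 and red lines are medians, at -0.50 for the lysosomal genes, between -0.49 and 0.15 for the related lists and at -2.24 for the fibroblast markers.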

How the data were processed

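Poly(A)-selected RNA of 6 libraries was sequenced, 3 p53-deficient and 3 WT. The authors deposited FPKM values for each gene and library, which correct fragment counts for gene length and library size. Per the submitters' processing notes, HISAT2 2.0.5, featureCounts 1.5.0-p3 and build mm10 were used, with no roles stated. Other columns deposited by the authors give gene positions and lengths. Multiplying FPKM by gene length put 100% of nonzero values on whole multiples of 1 step per library (tolerance 0.001), and reads were rebuilt from these. The treatment of multiply mapped reads is not given in the sources used.

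After a filter of mean FPKM at least 0.5, log2(FPKM + 1) was tested by limma 3.58.1 (R 4.3.3, variance trend, two-sided), and p-values were adjusted by Benjamini-Hochberg across 15144 genes. The smallest p of an exact permutation test at this group size (3 each) is 0.1. The fit was tested on simulated data with a fixed spread between libraries and few changed genes. Far more genes were called in the real data, so that test does not show how reliable these calls are. The members, lists and naming rule were chosen with earlier results of these data known. Every member was described. Values per library were given for called members with a log2 fold change of at least 0.5 in size, Lamp1, Lamp2, Tfeb, Tfe3 and the most abundant member of each role, and, as chosen after seeing values, for Cd63, Cd68, Cln3 and Ctsc. In each related list up to 3 called genes of largest change and the most abundant gene that did not pass were named. The values of 1 gene that this rule takes are not reported here. All 173 listed symbols were matched.

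Promoters are RefSeq's. Exon overlaps come from GENCODE mouse release M21, in which 98.3% of matched genes had the same coordinates. Near-identical copies (BLAST+ 2.17.0, 95% identity over at least 100 bases and 50% of the shorter transcript) were found for Cd63, Ctsd and Ctsl, all with copies of mean FPKM 0.657 or less. Alternatives were another pseudocount, 2 other filters, 2 scalings, voom weights on rebuilt reads, the replicate block and each library left out.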

Additional observations from a re-analysis of the deposited data

How the results depend on the processing

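Under the 13 alternatives, 36 of the 39 lysosomal genes kept their direction and their side of the threshold wherever they were fitted, the exceptions being Cd63, Cln3 and Tfe3. The counts stayed within 1.5 times the main ones of 32 lower and 5 higher, though with a mean FPKM of at least 5 only 29 members were fitted. The median log2 fold change was -0.58 with a pseudocount of 0.1, -0.58 with median-ratio scaling and -0.61 with voom weights, and lay between -0.54 and -0.48 with 1 library left out. Voom on rebuilt reads called 10488 of 15144 genes. Cd63 passed with a mean FPKM of at least 5 (adjusted p = 0.0499), under both scalings, with voom weights, with the block and without p53-deficient replicate 2, at log2 fold changes of -0.17 to -0.07. Cln3, never past the threshold, had -0.034 with median-ratio scaling, and lay between -0.0427 (without p53-deficient replicate 3) and 0.0933 (without p53-deficient replicate 2) with 1 library left out. Tfe3 did not pass with median-ratio scaling (0.11), after which the median over all genes was -0.05 and the share of calls that were higher 43.1%, against 53% in the reported fit. The cause was not tested. Lamp1 was then at -0.29, against -0.19. Scarce genes had larger falls at the smaller pseudocount and under voom, both of which compress low values less: Ctsh -2.01 and -2.34, Naglu -1.83 and -2.0, Ctss -1.29 and -1.49, Idua -1.07 and -1.24, Sgsh -0.71 and -0.81. The order of falls after Ctsk thus depends on the pseudocount, with Lamp2 at -1.41 and -1.44. In the related lists, the higher calls of V-ATPase genes also became 1 without the filter, with median-ratio scaling and with the block. With a mean FPKM of at least 5, fewer genes were fitted: 4 of 6 membrane genes and 5 of 10 autophagy genes were lower. The main fit had 8 of 14 and 10 of 15. Median-ratio scaling took the 91 tested genes of these lists from 24 higher and 45 lower to 18 and 53. Replicate numbers did not pair the libraries: correlations of same-numbered libraries' deviations over 7752 genes were -0.03, 0.02 and -0.02. With the replicate number as a block, 33 members were lower and 5 higher, and 9766 genes were called. Depth limits Ctss, with 26 reads in p53-deficient and 86 in WT libraries.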
